A study of Bos taurus with 31 samples.

Results

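Splicing factors were examined in the liver transcriptome of 31 lactating German Holstein cows, and the question was whether HNRNPH3 differed between the feeding groups alone or together with its relatives. The genes were taken from the table of raw read counts by their symbols, which had to start with HNRNP, SRSF, SF3A, SF3B, SNRNP or SNRP. This gave 58 genes of 24616 in the table, namely 20 HNRNP, 11 SRSF, 3 SF3A, 6 SF3B, 7 SNRNP and 11 SNRP genes. The families were picked for HNRNPH3, which had been selected on its measured difference between high and low concentrate feed proportions (CFP), so its own CFP values are given as a description without a test.

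The cows received a control (CON) or a glyphosate-contaminated (GLY) ration, each with a high (HC, 60%) or a low (LC, 30%) CFP. The authors report low background residues of glyphosate in the CON ration as well. The GLY ration carried residues of the herbicide formulation Roundup Record. Because of a higher feed intake, glyphosate exposure was higher in GLYHC than in GLYLC, as the authors state. In GLYHC versus GLYLC, CFP and this difference in exposure cannot be told apart. CONHC, CONLC and GLYHC comprised 8 cows each and GLYLC comprised 7 cows. The CON cows were of the same breed, also in lactation and kept on the same 2 concentrate levels as the GLY cows, and no group received a ration without concentrate. One liver biopsy per cow, taken in week 16 at the end of the feeding experiment, was sequenced. The reads assigned to genes numbered 11675775 in the shallowest and 36675542 in the deepest library. The 11 measured hepatocyte markers (ALB, APOA1 and others) together reached 138844 to 230680 CPM (read counts scaled to library size with TMM factors) in every cow. GLYLC cow 912 stood apart. FABP2, a fatty acid binding protein of the small intestinal epithelium, had 5636 of its 5646 reads in this cow, and the 6 measured intestinal markers summed to 404 CPM there and to at most 105 in any other cow. Of the hepatocyte markers, HP had 533760 of its 985366 reads in this cow, FGA 731236 of 7702233 and FGB 1157048 of 13848939. ALB had 1174788 of 68577773 reads there. Values that the removal of cow 912 moved strongly are therefore also given without it.

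Introns are removed from precursor mRNA by the spliceosome, which is built from small nuclear ribonucleoproteins (snRNPs). The SNRP and SNRNP genes encode the proteins of these particles, among them the Sm proteins that form a ring on the small nuclear RNA. The SF3A and SF3B genes encode the subunits of the U2 snRNP that hold the branch point. SRSF genes encode SR proteins, which bind exons and often favour their inclusion. Heterogeneous nuclear ribonucleoproteins (HNRNP genes) coat nascent transcripts and often act against the use of nearby splice sites. HNRNPH3 belongs to the H/F branch of these proteins together with HNRNPH1, HNRNPH2 and HNRNPF, a branch known for binding runs of G. In liver these factors are expressed in all cell types, so in bulk tissue fewer cells of a type and less RNA per cell cannot be told apart.

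All 58 genes had at least 20 reads summed over the cows and were tested. SRSF12 was the only gene close to this limit, with 129 reads in total from 29 cows, and every other member had reads in all 31 cows. Together the members took 0.321% to 0.532% of the assigned reads of a cow. Most reads per family were assigned to HNRNPA2B1, SRSF6, SF3A1, SF3B1, SNRNP200 and SNRPN. Levels are given in CPM, and differences as log2 fold changes with their standard error (SE). Calls rest on the quasi-likelihood F test of edgeR over 15916 genes, with p-values adjusted after Benjamini and Hochberg, and needed an adjusted p under 0.1 as well as a raw p under 0.05.

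HNRNPH3 (ENSBTAG00000014316) was lower in both HC groups than in the LC groups. In CONHC its level was 53.8 CPM in the lowest cow, 60.0 at the median and 66.1 in the highest cow. In CONLC the lowest cow had 63.4 CPM, the median was 73.9 CPM and the highest cow had 81.2 CPM. Thus 5 of 8 CONHC cows were below every CONLC cow, and the ranges overlapped. In GLYHC the level ran from 50.7 CPM over a median of 57.8 to 65.8 CPM. In GLYLC it ran from 62.4 CPM over a median of 70.1 to 72.7 CPM. Here 6 of 8 GLYHC cows were below every GLYLC cow, and 6 of 7 GLYLC cows were above every GLYHC cow. The group means were 60.5 ± 4.2 (SD, n = 8), 71.6 ± 6.83 (n = 8), 58.0 ± 5.32 (n = 8) and 69.1 ± 3.34 CPM (n = 7) in CONHC, CONLC, GLYHC and GLYLC.

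The log2 fold change of HNRNPH3 was -0.24 (SE 0.06) for CONHC versus CONLC and -0.25 (SE 0.07) for GLYHC versus GLYLC, and it was -0.25 (SE 0.05) for HC versus LC with treatment as covariate. The 2 within-treatment differences were measured in separate cows. However, the authors named HNRNPH3 as the one gene reduced in both HC groups, so the shared sign is part of what singled it out. Leaving out any 1 of the 31 cows kept the value with treatment as covariate between -0.26 and -0.23. The level of cow 912 was 68.1 CPM, within the range of its group. The cow-to-cow spread of HNRNPH3 within groups was 0.115 on the log2 scale, the seventh smallest of the 58 members, whose spread ranged from 0.0979 to 0.669.

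**Figure D1:**
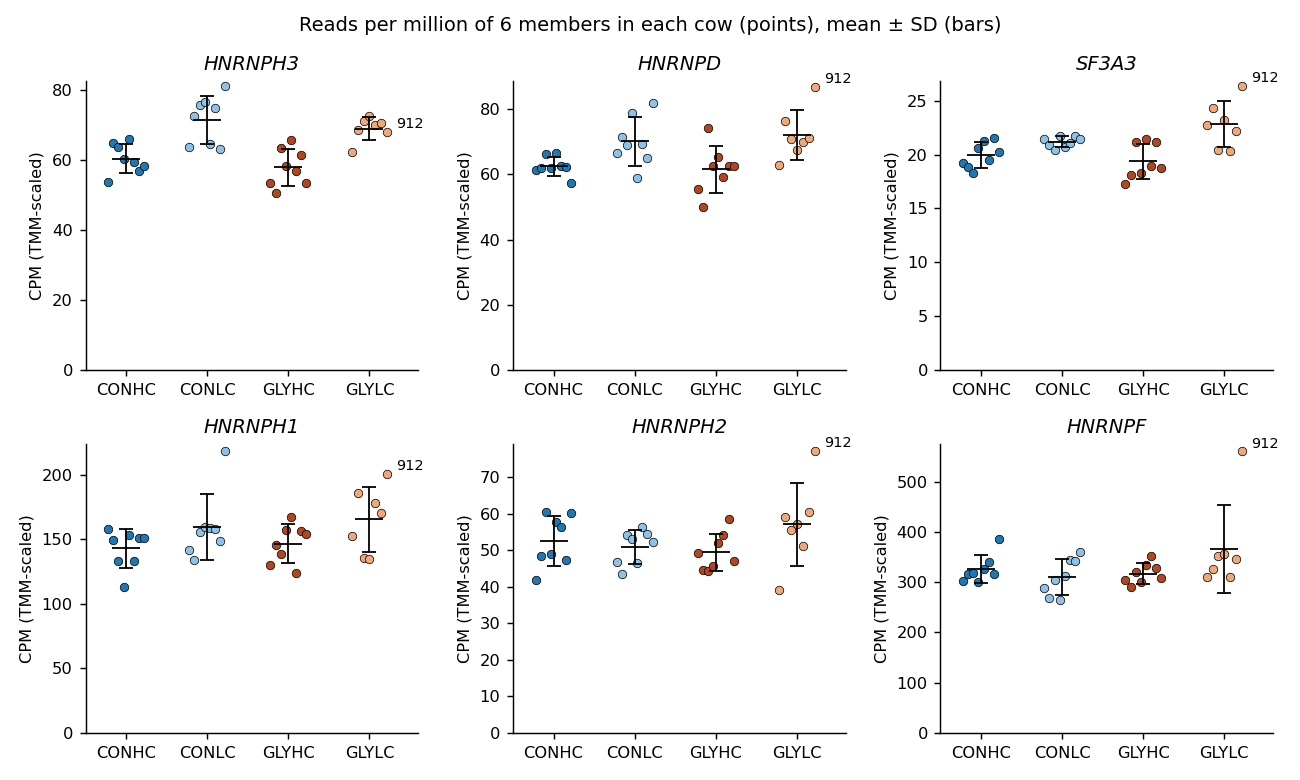
Levels of HNRNPH3, HNRNPD, SF3A3 and the H/F paralogues HNRNPH1, HNRNPH2 and HNRNPF (CPM, y axis, from 0) in each cow of the 4 feeding groups (x axis), where points are cows, horizontal bars are means and error bars are SD. The HC points of HNRNPH3 lie low against the LC points under both treatments, and GLYLC cow 912, labelled, is the highest of all cows for HNRNPF at 561 CPM but not for HNRNPH3.

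GLY exposure did not give a call for HNRNPH3. The log2 fold change was -0.06 (SE 0.06) for GLYHC versus CONHC and -0.05 (SE 0.07) for GLYLC versus CONLC, and it was -0.06 (SE 0.05) for GLY versus CON with CFP as covariate. The adjusted p of edgeR was 1 in each of these comparisons. For the interaction of GLY with CFP it was -0.01 (SE 0.09). DESeq2 on all cows did not call it in these comparisons either, and a missing call does not show that the gene is unaffected.

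The other 57 members were lower in HC by a smaller median. With treatment as covariate, 43 of the 57 were lower in HC and 14 were higher, with a median log2 fold change of -0.08, beside -0.01 for all genes tested, of which 54% were lower. Among the 57, HNRNPD and SF3A3 were called, both lower in HC. Over all genes, 1.45% were called in this comparison and 0.773% were called lower. An unadjusted p under 0.05 was reached by 11 of the 57 members, all lower in HC, beside 13.7% of all genes in either direction and 7.81% lower. Of all 58 members HNRNPH3 had the most negative value in the additive comparison, with SRSF3 next at -0.24 (SE 0.11), whose adjusted p was 0.334.

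HNRNPD, also called AUF1 and known for binding AU-rich elements and promoting mRNA decay, had the next called difference at -0.20 (SE 0.05, adjusted p = 0.0860, edgeR). Its levels were 57.4 CPM (lowest), 62.2 (median) and 66.5 (highest) in CONHC and 59.0, 69.1 and 81.9 CPM in CONLC. In GLYHC they were 49.9, 62.5 and 74.2 CPM, and in GLYLC 62.9, 70.8 and 86.8 CPM. The groups overlapped under both treatments. In CON, 5 of 8 CONLC cows were above every CONHC cow, and 1 of 8 CONHC cows was below every CONLC cow. In GLY, 6 of 8 GLYHC cows were below every GLYLC cow, and 2 of 7 GLYLC cows were above every GLYHC cow. The highest GLYLC level belonged to cow 912. Without cow 912 the adjusted p of HNRNPD was 0.122 and the call was lost.

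SF3A3, a subunit of the SF3A trimer of the U2 snRNP, fell by 0.16 on the log2 scale (SE 0.04, adjusted p = 0.0860, edgeR). Its levels were 18.3 CPM (lowest), 19.8 (median) and 21.6 (highest) in CONHC and 20.4, 21.3 and 21.7 CPM in CONLC. In GLYHC they were 17.3, 18.8 and 21.5 CPM, and in GLYLC 20.4, 22.8 and 26.4 CPM. Here too the ranges overlapped, and the highest GLYLC value was that of cow 912. Without that cow the adjusted p of SF3A3 was 0.127 and the call was lost. Of 31 fits that each left out 1 cow, HNRNPD was called in 18 and SF3A3 in 17. Over these fits the adjusted p of HNRNPD was between 0.0449 and 0.132 and that of SF3A3 between 0.0627 and 0.143, and their sign was negative in every one.

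**Figure D2:**
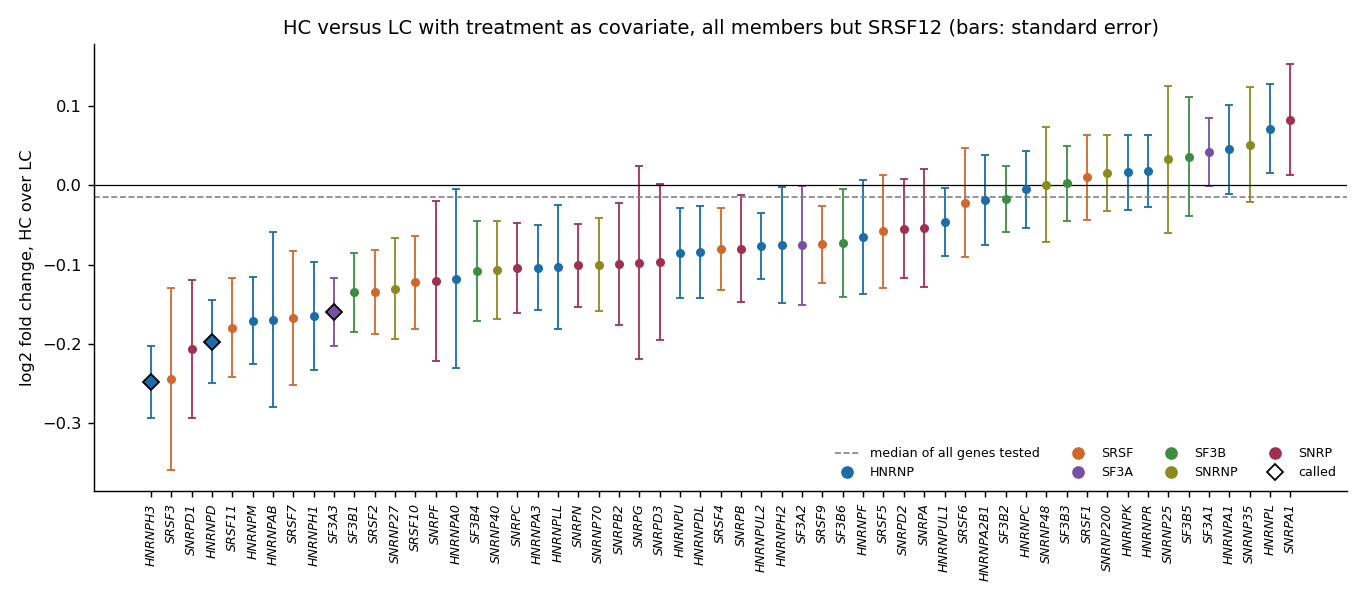
Log2 fold change of HC over LC with treatment as covariate (y axis) for 57 members ordered by value (x axis), coloured by family, with error bars of 1 SE. HNRNPH3 stands at the lower end at -0.25, diamonds mark HNRNPD, SF3A3 and HNRNPH3, the last of which is shown as a description only, and the dashed line gives the median of all genes tested (-0.01). SRSF12 is left out because its 129 reads give an SE of 0.35.

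The closest relatives of HNRNPH3 were not called. HNRNPH1, a regulator of alternative exons through G runs, had a log2 fold change of -0.16 (SE 0.07, adjusted p = 0.258) for HC versus LC with treatment as covariate. HNRNPH2 was at -0.08 (SE 0.07, adjusted p = 0.714) and HNRNPF at -0.07 (SE 0.07, adjusted p = 0.756) in the same edgeR fit. Without cow 912 these values were -0.14 (SE 0.07) for HNRNPH1, -0.03 (SE 0.06) for HNRNPH2 and 0.00 (SE 0.05) for HNRNPF. Mean levels of HNRNPH1 were 143 ± 15.1 CPM in CONHC, 159 ± 25.6 in CONLC, 147 ± 14.9 in GLYHC and 165 ± 25.3 in GLYLC (SD, n = 8, 8, 8 and 7). HNRNPF differed in sign between the treatments, at 0.07 (SE 0.09) for CONHC versus CONLC and -0.21 (SE 0.10) for GLYHC versus GLYLC, with the highest GLYLC level of 561 CPM in cow 912 and a group median of 347 CPM. HNRNPH2 showed the same change of sign (0.05, SE 0.10, and -0.21, SE 0.10), and the interaction of GLY with CFP was called for neither gene. Without cow 912, GLYHC versus GLYLC gave -0.08 (SE 0.07) for HNRNPF and -0.12 (SE 0.09) for HNRNPH2. HNRNPH3 made up 10.4% ± 0.904 of the summed CPM of the 4 H/F genes in CONHC and 12.2% ± 1.30 in CONLC. The share was 10.1% ± 0.585 in GLYHC and 10.7% ± 1.46 in GLYLC, or 11.2% ± 0.412 without cow 912 (n = 6). HNRNPH1 and HNRNPH2 are similar in sequence, and since only uniquely mapped reads were counted, reads that fit both are missing from their counts.

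Of the remaining HNRNP genes, 15 of 19 without HNRNPH3 were lower in HC in the additive comparison, with a median of -0.08. HNRNPM, a regulator of alternative exons, came closest to a call after HNRNPD at -0.17 (SE 0.06, adjusted p = 0.144). The 4 genes on the other side were HNRNPK, HNRNPR, HNRNPA1 and HNRNPL, at 0.02 to 0.07. HNRNPA2B1, the member with the most reads in the HNRNP family, was at -0.02 (SE 0.06), and HNRNPC, which binds uridine tracts, was at -0.00. Counted with HNRNPH3, 16 of 20 HNRNP genes were lower in HC in all cows, with a median of -0.08. Without GLYLC cow 912, 14 of these 20 were lower and 6 were higher, and the median went to -0.04.

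In the SR protein family, 9 of 11 genes were lower in HC, with a median of -0.08, and none was called. SRSF3 had the most negative value and SRSF11 the next at -0.18 (SE 0.06, adjusted p = 0.176), while the sparsely read SRSF12 was at 0.38 (SE 0.35). SRSF3, which also couples splicing to mRNA export, had a wide spread in GLYLC, where it ran from 31.4 CPM to 88.7 CPM in cow 912. Without this cow its log2 fold change was -0.15 (SE 0.09) and had an unadjusted p of 0.113. SRSF2, an activator of exon inclusion, was at -0.13 (SE 0.05, adjusted p = 0.242). SRSF6, the SR gene with the most reads, was at -0.02 (SE 0.07).

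Among the U2 snRNP subunits, SF3B1, the scaffold at the branch point, was at -0.14 (SE 0.05, adjusted p = 0.205), and the other 5 SF3B genes were between -0.11 and 0.04. SF3A1 was at 0.04 (SE 0.04) and SF3A2 at -0.08, so the 3 subunits of the SF3A trimer did not share a sign. Of the SNRP genes, 10 of 11 were lower in HC, led by SNRPD1, a core Sm protein, at -0.21 (SE 0.09, adjusted p = 0.274). The exception was SNRPA1 of the U2 snRNP at 0.08. The SNRNP genes were divided, with 3 lower and 4 higher. SNRNP27 of the tri-snRNP stood at -0.13 (SE 0.06, adjusted p = 0.359) and SNRNP200, the helicase that unwinds U4 from U6, at 0.02 (SE 0.05). In all cows, only SNRPD1 and SNRNP27 of these 2 families had an unadjusted p under 0.05, beside 13.7% of all genes. Without cow 912, 0 genes of either family had such a p, beside 11.9% of all genes. Then 10 of 11 SNRP genes were still lower, with a median of -0.07 instead of -0.10.

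Within the single treatments none of the other 57 members was called in edgeR, while DESeq2 on all cows called SF3A3 in GLY. In CON cows, HNRNPH3 stood at -0.24 while the other 57 members had a median of -0.02 (all genes -0.01), with 33 lower and 24 higher in HC. An unadjusted p under 0.05 was reached by 2 of the 57, HNRNPD at -0.17 (SE 0.07) and SRSF2 at -0.16 (SE 0.08). Over all genes 5.96% had such a p, and 518 of 15916 were lower with it. In GLY cows the 57 had a median of -0.11 (all genes -0.01), with 47 lower and 10 higher in HC. Here 16 of the 57 had an unadjusted p under 0.05, all lower in GLYHC, beside 12.5% of all genes and 7.45% that were lower. The percentage of genes called was 0 in CON and 0.201 in GLY. The most negative values in GLY belonged to SRSF3 at -0.41 (SE 0.16, adjusted p = 0.282), to SRSF7 at -0.34 (SE 0.12, adjusted p = 0.234) and to HNRNPLL, a splicing regulator of lymphocytes, at -0.29 (SE 0.10, adjusted p = 0.240). Without cow 912 these went to -0.23 (SE 0.14), -0.17 (SE 0.09) and -0.17 (SE 0.08), each with an unadjusted p above 0.05. SF3A3 had the smallest adjusted p of the 57 (0.102) at -0.24 (SE 0.06), and -0.20 without that cow.

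The values in GLY moved towards those in CON without cow 912. In that cow, 50 of the other 57 members were above their median over all cows, 23 of the 58 members had their highest level of all 31 cows, and the median deviation of the 57 was 0.27 on the log2 scale, the highest of any cow. HNRNPH3 deviated by 0.09 there and ranked eleventh. Without cow 912, the other 57 members in GLYHC versus GLYLC had a median of -0.07, and 45 were lower. An unadjusted p under 0.05 was left for 7 (12.3%) instead of 16, all lower. Over all genes 8.37% had such a p in either direction, and 700 of 15752 were lower with it. HNRNPH3 remained at -0.26 (SE 0.07). In HC versus LC with treatment as covariate, the median of the 57 went to -0.05, and 40 were lower. An unadjusted p under 0.05 was reached by 7 (12.3%), all lower, beside 11.9% of all genes in either direction and 995 of 15752 lower. HNRNPH3 was then at -0.25 (SE 0.05), and 0 of the other 57 members were called, beside 0.863% of all genes.

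**Figure D3:**
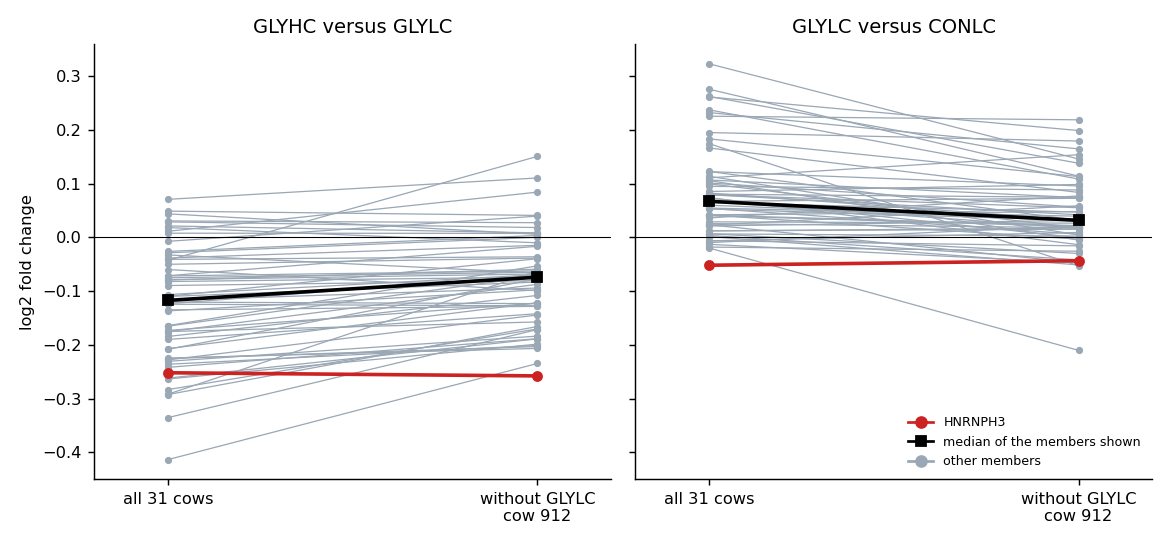
Log2 fold changes (y axis) of the members except SRSF12 for GLYHC versus GLYLC (left) and GLYLC versus CONLC (right), in the fit of all 31 cows and in the fit without GLYLC cow 912 (x axis), with 1 line per gene, HNRNPH3 in red and the median in black. The median moves towards 0 without the cow in both panels, whereas HNRNPH3 moves from -0.25 to -0.26 on the left and stays near -0.05 on the right.

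Within the single cow, the distance of HNRNPH3 from the rest of the members was taken as its log2 CPM minus the median of the other 57, each centred on its own median over all cows. This distance was -0.06 ± 0.106 in CONHC and 0.16 ± 0.131 in CONLC (SD, n = 8 each). It was -0.10 ± 0.0941 in GLYHC (n = 8) and 0.04 ± 0.117 in GLYLC (n = 7), or 0.08 ± 0.0684 without cow 912 (n = 6). The median of the other members was -0.02 ± 0.0573 in CONHC, 0.00 ± 0.0371 in CONLC, -0.04 ± 0.0787 in GLYHC and 0.07 ± 0.0976 in GLYLC. HNRNPH3 was thus lower against its relatives in the mean of both HC groups, and no test of it is given because its CFP difference chose the genes. No member had HC and LC cows that did not overlap, under either treatment, where 0.0188% of all genes in CON and 0.0942% in GLY did so.

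**Figure D4:**
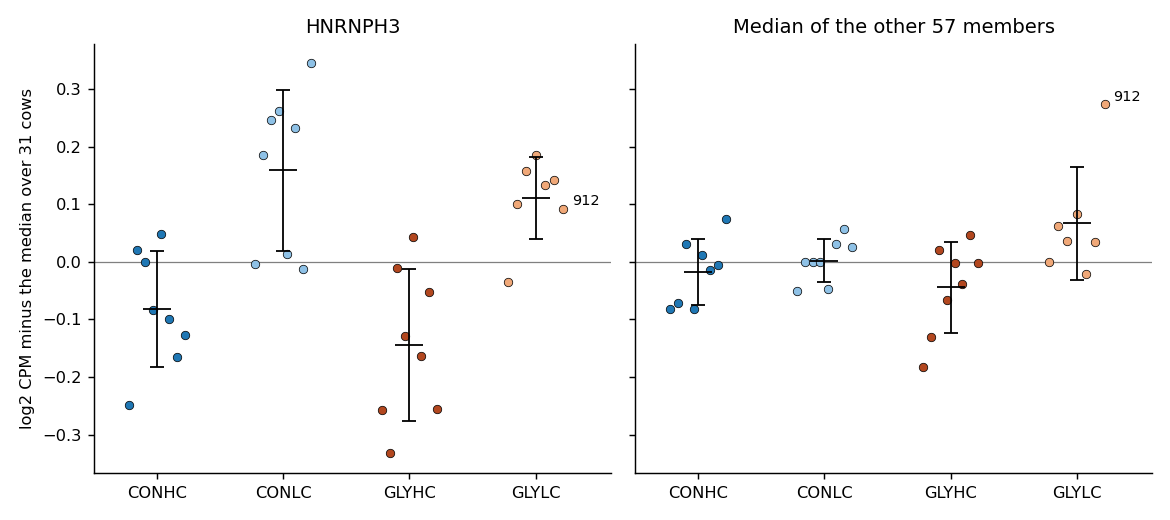
Deviation of log2 CPM from the median over the 31 cows (y axis) in the 4 feeding groups (x axis) for HNRNPH3 (left) and for the median of the other 57 members (right), where points are cows and bars are mean ± SD. HNRNPH3 lies lower in HC than in LC on average under both treatments, while the medians of the other members lie closer to 0, with GLYLC cow 912 highest at 0.27.

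Dietary GLY did not give a call for any of the 58 genes, either in edgeR or in DESeq2 on all cows. In GLYHC versus CONHC, 35 members were lower and 23 higher, with a median of -0.03 (all genes 0.01), and 0 of 58 had an unadjusted p under 0.05 (all genes 2.92%). Without GLYHC cow 37 this median turned to 0.01. In GLYLC versus CONLC, 50 were higher and 8 lower, with a median of 0.07 (all genes -0.00). An unadjusted p under 0.05 was reached by 7, all higher, beside 5.65% of all genes and 3.71% that were higher. The largest of these were SRSF7 at 0.28 (SE 0.12, adjusted p = 0.798), HNRNPLL at 0.26 (SE 0.10, adjusted p = 0.748) and SNRNP40, a protein of the U5 snRNP, at 0.26 (SE 0.08, adjusted p = 0.404). Without cow 912, 43 members were higher with a median of 0.03, and 2 of the 58 kept an unadjusted p under 0.05. Both were higher, beside 3.07% of all genes in either direction and 202 of 15752 higher. They were SNRNP40 at 0.20 (SE 0.08) and SNRNP35 of the minor spliceosome at 0.22 (SE 0.10), both with an adjusted p of 1 in edgeR. SRSF7 and HNRNPLL were then at 0.11 (SE 0.09) and 0.14 (SE 0.08). These 2 comparisons share the cows of all 4 groups with the comparisons of CFP above. In particular, GLYLC versus CONLC and GLYHC versus GLYLC share the GLYLC cows, cow 912 among them.

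For GLY versus CON with CFP as covariate, 44 members were higher and 14 lower, with a median of 0.03 (all genes 0.00). SRSF6 at 0.14 (SE 0.07) and SRSF12 at -0.87 (SE 0.35) had an unadjusted p under 0.05, beside 3.92% of all genes, and the adjusted p of both was 1. The mean level of SRSF12 was between 0.127 and 0.321 CPM in the 4 groups, so that its value rests on few reads. Without cow 912, 37 members were higher and 21 lower, with a median of 0.01. SRSF6 was then at 0.11 (SE 0.06) with an unadjusted p of 0.0972, and SRSF12 at -0.99 (SE 0.35) was the 1 member with an unadjusted p under 0.05, beside 2.76% of all genes. The interaction of GLY with CFP was negative for 47 of 58 members, with a median of -0.08 (all genes 0.01). An unadjusted p under 0.05 was found for SF3B6 (-0.30, SE 0.13), SNRNP40 (-0.31, SE 0.11), HNRNPLL (-0.37, SE 0.14) and SNRPB2 (-0.32, SE 0.15). Over all genes 4.21% had such a p, 367 of 15916 with a negative value. The smallest adjusted p among the members was 0.998. Without cow 912 the interaction was negative for 44 members, with a median of -0.04 (all genes 0.02). SF3B6 (-0.28, SE 0.13), SNRNP40 (-0.24, SE 0.10) and HNRNPLL (-0.24, SE 0.11) then had an unadjusted p under 0.05, and that of SNRPB2 was 0.0867. Over all genes 3.47% were under 0.05, 249 of 15752 with a negative value. Calls were made for 0.0628% of all genes in GLYLC versus CONLC and for 0% in the other GLY comparisons and the interaction.

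The variation of HNRNPH3 from cow to cow was also compared with that of its relatives. It was measured as the correlation of log2 CPM over the 31 cows after each group mean was removed, which does not use the group differences, and 57 relations were computed. The correlation was positive for 44 of 57 members (77.2%), with a median Pearson r of 0.20, beside 49.6% and -0.00 for all other genes tested. A permutation test within groups, two-sided with 100000 resamples, gave an unadjusted p under 0.05 for 12 of the 57 members, of which 11 were positive, beside 6.12% of all genes. No gene passed after adjustment over all 15915 genes, where the smallest adjusted p was 0.541.

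HNRNPD had the highest Pearson r of the members and of all genes tested in the 31 cows, with r = 0.67 (permutation p = 0.00012, adjusted p = 0.541) and Spearman's rho = 0.66 (permutation p = 0.00024). Without the 2 cows farthest from the median of HNRNPH3, CONLC cow 941 and GLYHC cow 37, r was 0.57, and it was 0.75 without GLYLC cow 912. HNRNPC followed with r = 0.58 (permutation p = 0.00094, adjusted p = 0.766) and rho = 0.48 (permutation p = 0.00953), and its r without these cows was 0.58. HNRNPA3 (r = 0.52), HNRNPA2B1 (r = 0.51) and SF3B6 (r = 0.51) came next, each with an adjusted p of 0.766 by permutation. Of these genes, HNRNPC and HNRNPA2B1 had log2 fold changes near 0 for HC versus LC (-0.00 and -0.02), and SF3B6 was at -0.07. HNRNPA3 had mean levels of 64.3 CPM in HC and 69.1 CPM in LC, and HNRNPD was called for HC versus LC. The H/F relative with the highest value was HNRNPH2 at r = 0.39. The lowest values belonged to SNRNP200 (r = -0.38) and SF3A1 (r = -0.29). Besides HNRNPD, the genes with the highest r were TOR1AIP2 (r = 0.67), DNAJC8 (r = 0.65), TCEAL9 (r = 0.63) and KCTD9 (r = 0.63). The order at the top was not stable, since DNAJC8 had the higher rho (0.68, permutation p = 5e-05), and without the 2 farthest cows HDAC1 (r = 0.68), DNAJC8 (r = 0.63) and HNRNPC (r = 0.58) exceeded HNRNPD.

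**Figure D5:**
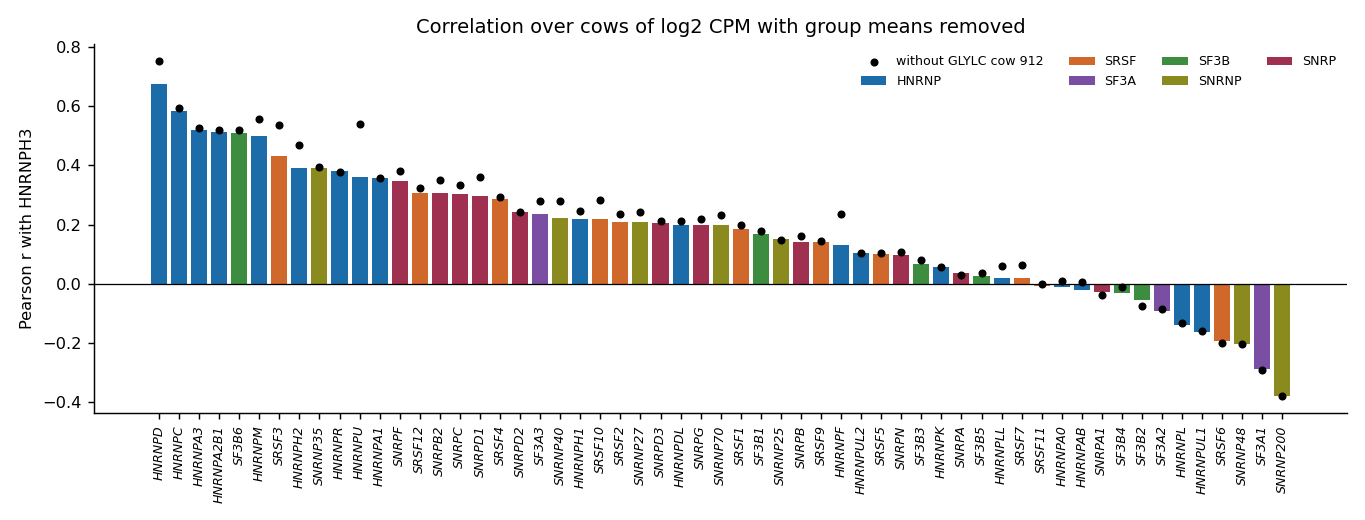
Pearson r of each of the 57 other members with HNRNPH3 over 31 cows (y axis) after the group means of log2 CPM were removed, ordered by value (x axis) and coloured by family, with black dots for the value without GLYLC cow 912. Most members are above 0, HNRNPD is highest at 0.67, and the dots lie close to the bars for most genes.

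Scaling mattered for this result, since without the TMM factors 42 of 57 members instead of 12 had an unadjusted permutation p under 0.05, and the share over all genes rose from 6.12% to 21.3%. Without the 2 farthest cows, 7 members did, beside 5.65% of all genes.

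Other genes of the splicing machinery were examined as fixed lists. None of their genes was called in any of the 7 comparisons in edgeR. For HC versus LC with treatment as covariate, 48 of 58 further spliceosome components were lower in HC, with a median of -0.05. Of the 58, 8 (13.8%) had an unadjusted p under 0.05, all lower, beside 13.7% of all genes in either direction and 7.81% lower. The most negative of these was PRPF38B at -0.21 (SE 0.08, adjusted p = 0.256). Of the SR protein kinases, which phosphorylate SR proteins, 7 of 9 were lower with a median of -0.13. CLK1 was at -0.29 (SE 0.10, adjusted p = 0.148), and 4 of the 9 (44.4%) had an unadjusted p under 0.05. Of the other splicing regulators, 40 of 52 were lower with a median of -0.06, and 11 (21.2%) had an unadjusted p under 0.05, among which SFPQ was the most negative at -0.26 (SE 0.09, adjusted p = 0.182). The single one of these that was higher was QKI at 0.17 (SE 0.06, adjusted p = 0.170), which binds intronic sites and is involved in exon choice. Of the snRNP assembly genes, 13 of 15 were lower with a median of -0.05, and 3 (20%) had an unadjusted p under 0.05, among them PRMT5, the methyltransferase of Sm proteins, at -0.15 (SE 0.07, adjusted p = 0.311). Without cow 912 an unadjusted p under 0.05 was left for 7 spliceosome components (12.1%), 3 kinases (33.3%), 6 other regulators (11.5%) and 0 assembly genes, beside 11.9% of all genes. Of these, 6 components, 3 kinases and 5 regulators were lower, beside 995 of 15752 over all genes. PRPF38B was then at -0.11 (SE 0.05), CLK1 at -0.27 (SE 0.10) and SFPQ at -0.17 (SE 0.07). HNRNPH3 at -0.25 was exceeded in size by CLK1, CLK4 at -0.27 (SE 0.08) and SFPQ among the genes with an unadjusted p under 0.05 in all cows.

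Cell type markers also differed with CFP. All 7 stellate and fibroblast markers were lower in HC in the additive comparison, with DCN at -0.50 (SE 0.10, adjusted p = 0.0275) and TAGLN at -1.5 (SE 0.42, adjusted p = 0.0948) called, and 4667 of 11328 reads of TAGLN came from cow 912. Their summed level was 181 to 313 CPM in CONHC, 156 to 2259 in CONLC, 132 to 208 in GLYHC and 207 to 451 in GLYLC. The medians of these sums were 229, 281, 187 and 290 CPM in the same order, so the highest CONLC value lay far above its group median. Of the 8 macrophage markers 6 were higher in HC, with CD68 at 0.61 (SE 0.17, adjusted p = 0.0948) and CD5L at 0.41 (SE 0.11, adjusted p = 0.0860) called, and their sum was 599 to 1208 CPM in CONHC, 665 to 1012 in CONLC, 664 to 1226 in GLYHC and 723 to 1074 in GLYLC. Of the 6 intestinal markers 5 were lower in HC, where FABP2 (-9.14, SE 1.74), MUC13 (-7.13, SE 1.51) and OLFM4 (-5.19, SE 1.2) were called, and 686 of 691 reads of MUC13 and 315 of 328 reads of OLFM4 came from cow 912. Of 5 epidermis markers 4 were higher, with KRT1 (4.23, SE 1.09) and KRT14 (2.40, SE 0.68) called at 241 and 62 reads in total. Without cow 912, DCN at -0.51 (SE 0.10) was the 1 marker still called, TAGLN was at -0.77 (SE 0.25, adjusted p = 0.179), and CD68, CD5L, KRT1 and KRT14 had adjusted p-values of 0.137, 0.116, 0.111 and 0.147 in edgeR, while FABP2, MUC13 and OLFM4 fell below the limit of 20 reads. No hepatocyte, bile duct, endothelial, lymphocyte or red cell marker was called in all cows or without cow 912. The part of these cell types in the differences of HNRNPH3, HNRNPD and SF3A3 was not tested.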

How the data were processed

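Poly(A)-selected, stranded RNA-seq libraries of liver from 31 cows were used. The authors deposited raw counts of reads per gene, from HISAT2 2.1.0 alignments to UMD3.1 counted with HTSeq 0.8.0 after Trim Galore and FastQC (submitters' processing notes). Whether HTSeq used strand is not given in the sources used here. The second deposited table, scaled by size factors of DESeq2 1.20.0, was not used. Of 24616 genes, 4961 have no symbol and could not be matched to a prefix. Groups and cow numbers came from the sample titles. No 2 cows of a group agreed within sampling noise (105 pairs, smallest chi-square per gene 24.5).

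Genes with at least 20 reads over all cows (15916) were fitted in edgeR 4.0.16 (R 4.3.3) with TMM factors and the quasi-likelihood F test, as 4 groups or additively. Python 3.11.15 gave the correlations (prior count 2). The fits were also run on simulated counts, where genes were changed in GLYHC only and by more than most members differed here. That run does not tell whether differences as small as these can be found. Adjustment over the 57 members alone, as planned for the correlations, was replaced by adjustment over all genes. p-values cover the spread between cows, and reads are not independent molecules. Alternatives were RLE and upper-quartile scaling, other read filters, DESeq2 1.42.0, fits of 2 groups, a stricter threshold and each cow left out.

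The members and gene lists were chosen with earlier results of these data known. Named genes were HNRNPH3 and its paralogues, called members, the 3 largest rises and falls at an unadjusted p under 0.05, the 5 highest and 2 lowest correlations, the member with most reads per family, called or most changed list genes, and the 5 genes most like HNRNPH3. Others were named after their values were seen.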

Additional observations from a re-analysis of the deposited data

Results flagged for a closer look

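In groups of 7 or 8 cows, the highest or lowest value was set apart from its nearest neighbour by more than Dixon's 95% limit in 12 of 120 groups tested, over 29 named members and the members' share of reads. Chance is expected to do this in about 1 of 20 groups that are independent and not selected. Many of these members were named for their values, and they share the same cows. The count of 12 of 120 therefore cannot be read against that rate. GLYLC cow 912 gave 4 of them, with HNRNPF at 561 CPM, SRSF3 at 88.7 CPM, SRSF7 at 70.0 CPM and a members' share of 0.532% of the assigned reads, each the highest of its group. CONLC cow 941 was the highest of its group for HNRNPH1 (219 CPM), SF3B1 (287 CPM) and SRSF11 (56.2 CPM). CONHC cow 7 was the lowest of its group for HNRNPC (68.6 CPM) and the highest for SRSF11 (49.8 CPM). CONHC cow 208 was the highest for HNRNPF (387 CPM), CONLC cow 169 the lowest for SF3B6 (30.4 CPM) and CONLC cow 145 the highest for SNRPN (46.3 CPM). No value of HNRNPH3, HNRNPD or SF3A3 was set apart in this way.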

How the results depend on the processing

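The log2 fold change of HNRNPH3 for CFP kept its direction under every alternative run, and so did the medians of the members except in GLYHC versus CONHC, where -0.03 turned to 0.01 without GLYHC cow 37. That median also moved by over 1.5 times without CONHC cow 123, 134 or 208, GLYHC cow 32 or 127, or GLYLC cow 147 (-0.01 to -0.00). In CONHC versus CONLC the median of -0.02 was between -0.04 and -0.00 without CONHC cow 41 or 208, CONLC cow 169, 260 or 941, GLYHC cow 37, or GLYLC cow 147. For GLY versus CON with CFP as covariate 0.03 became 0.04 without GLYHC cow 37 and 0.01 without GLYLC cow 912, and without the latter -0.11 became -0.07 in GLYHC versus GLYLC, 0.07 became 0.03 in GLYLC versus CONLC and -0.08 became -0.04 for the interaction. The counts of calls for CFP include HNRNPH3, whose own call is no test. The number of members called in CONHC versus CONLC was 0 and became 1 with DESeq2 on all cows and 1 with DESeq2 on 2 groups, HNRNPH3 in both. In GLYHC versus GLYLC it was 0 and became 2 with DESeq2 on all cows (HNRNPH3 and SF3A3), 1 with DESeq2 on 2 groups (HNRNPH3), and 0 to 1 when each cow was left out. In HC versus LC with treatment as covariate it was 3, and it was 1 with genes of at least 1 read, 1 at an adjusted p under 0.05, 4 with DESeq2 and 1 to 4 when each cow was left out. HNRNPD was not called without CONHC cow 41, 133 or 208, CONLC cow 103, 145, 166, 259 or 941, GLYHC cow 32, 127, 152 or 159, or GLYLC cow 912, and SF3A3 was not called without CONHC cow 41 or 144, CONLC cow 60, 103, 145, 259 or 941, GLYHC cow 32, 127, 152 or 159, or GLYLC cow 42, 209 or 912. The number of members correlated with HNRNPH3 at an unadjusted p under 0.05 was 12, and it was 42 without TMM factors, 7 without the 2 farthest cows and 11 without GLYLC cow 912, an alternative added after the data were seen. Over all genes, DESeq2 on all cows called 27 in CONHC versus CONLC, 143 in GLYHC versus GLYLC and 434 in the additive comparison, beside 0, 32 and 231 in edgeR, and the cause was not tested. No paired analysis was possible because cow numbers are not shared between the groups. With 8 or 7 cows per group, differences as small as those of most members were not separable from the spread between cows, and a missing call does not show that a gene is unaffected.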
